A study of Mus musculus with 4 samples.

Results

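The Smpd3 Edn1 fibroblasts of the renal capsule, the thin connective tissue sheath of the kidney, were a group of single cells picked out by transcripts in a droplet single-cell RNA dataset from young and aged mice. A barcode belonged to the group when it carried at least 5 unique molecular identifiers (UMIs, each standing for 1 captured transcript) of Col1a1, Col1a2 and Col3a1 together, no UMI of Ptprc or Pecam1, at least 3 of the 5 genes Postn, Smpd3, Cxcl13, Edn1 and Lgi2, and among them at least 2 of Smpd3, Cxcl13 and Edn1. The collagen, Ptprc and Pecam1 conditions alone defined a fibroblast gate of 13001 barcodes. Of these, 4658 met the whole rule, out of 37361 barcodes kept in all. The 8343 remaining barcodes of the gate are called the other fibroblasts.

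Capsules were removed from the kidneys of untreated mice and digested, and the 4 libraries comprised 2 from young and 2 from aged mice. How old the mice were, their strain and sex, and how many went into a library is not given in the sources used here. The p-values therefore rest on library-to-library spread, which may be technical. The libraries held 51180311 to 70925446 UMIs, and the group's own sums were 15802574 and 16026682 UMIs in the young and 5188123 and 3698834 UMIs in the aged libraries. Between 18 and 37 barcodes recurred in each pair of libraries, and 0 to 2 among the group's members.

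Fibroblasts secrete and remodel the collagen, elastic and basement membrane networks of connective tissue, and they also signal to immune cells and vessels. Of the 5 genes of the rule, Smpd3 encodes neutral sphingomyelinase 2, an enzyme that cleaves sphingomyelin to ceramide, and Edn1 encodes endothelin-1, a vasoconstrictor peptide. Postn encodes periostin, a matrix protein that takes part in collagen assembly, Cxcl13 encodes a chemokine that attracts B cells, and Lgi2 encodes a secreted leucine-rich repeat protein. In mouse build GRCm38, Smpd3 lies at chr8:106252548-106337988, Edn1 at chr13:42301476-42307990, Postn at chr3:54361109-54391037, Cxcl13 at chr5:95956951-95961068 and Lgi2 at chr5:52533517-52566462.

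The working label of the group, which names Postn, Smpd3 and Cxcl13, matched its members only in part. These detection values belong to the rule and are given as a description. Smpd3 was detected in 99.3% to 99.8% of members per library, Lgi2 in 87.6% to 93.0% and Edn1 in 80.0% to 86.6%. In the other fibroblasts Smpd3 was detected in 44.5% to 54.9%, Lgi2 in 46.3% to 50.4% and Edn1 in 6.52% to 14.3%. Postn was detected in 76.6% and 77.9% of young members but in 24.7% and 24.0% of aged members. Cxcl13 was detected in a minority of members in every library, 33.0% and 31.1% in the young and 36.5% and 40.4% in the aged. The commonest combination was therefore Postn with Smpd3, Edn1 and Lgi2 in the young members (43.2% and 46.6%), and Smpd3 with Edn1 and Lgi2 without Postn in the aged members (46.0% and 46.2%). Smpd3 and Edn1 are used as the group's name for that reason.

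**Figure D1:**
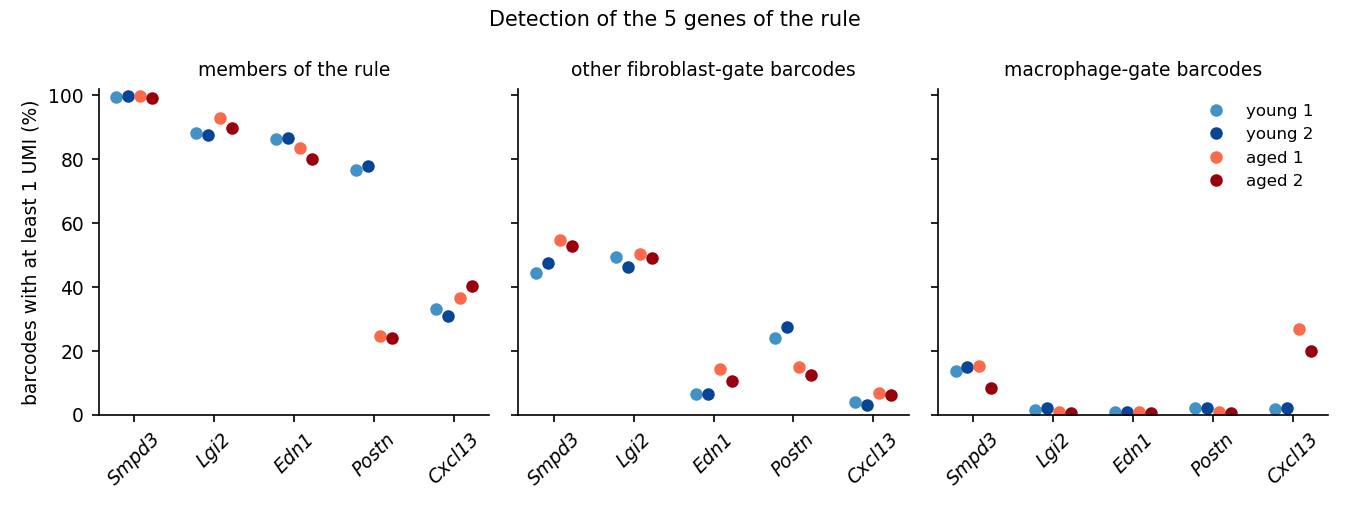
Percent of barcodes with at least 1 UMI of each of the 5 genes of the rule, by library, in the members, in the other fibroblasts and in barcodes with macrophage transcripts. Smpd3, Lgi2 and Edn1 are detected in most members at both ages, which the rule favours. Smpd3 and Lgi2 are also detected in 44.5% to 54.9% and 46.3% to 50.4% of the other fibroblasts. Postn is detected in 76.6% and 77.9% of young but 24.7% and 24.0% of aged members, and Cxcl13 in at most 40.4% of members.

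The levels of the 5 genes over the whole fibroblast gate, which does not depend on them, showed the same contrast. Postn stood at 290.9 and 312 counts per 1000000 UMIs (CPM) in the young gate and at 105 and 89.6 CPM in the aged gate. Smpd3 stood at 856, 848, 828 and 625 CPM, Edn1 at 129, 128, 119 and 89.7 CPM and Lgi2 at 249, 242, 215 and 216 CPM in young replicates 1 and 2 and aged replicates 1 and 2. Cxcl13 stood at 173, 149, 192 and 148 CPM, with overlapping ages. Postn was thus the gene whose young and aged levels were furthest apart. These values were not tested.

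Free RNA in droplets can give UMIs in cells that do not express a gene, so the same genes were read in macrophage-gate barcodes (at least 2 UMIs of C1qa and under 5 collagen UMIs), whose median depths of 7264, 7544, 9706 and 6854 UMIs were close to those of the members (8730, 8574, 9787 and 6542). Edn1, Lgi2 and Postn were detected in under 2.3% of these barcodes in each library. Smpd3 was detected in 8.49% to 15.3% of them, against 64.2% to 72.7% of the whole fibroblast gate, which the 5 genes did not define. Cxcl13 was detected in 1.89% and 2.26% of young macrophage-gate barcodes but in 27.0% and 20.1% of aged ones, above the 6.82% and 6.16% of the aged other fibroblasts. Its level in the aged macrophage gate, 320 and 200.1 CPM, was of the same order as in the aged members, 274 and 334 CPM. The marker condition of the rule was met by 1, 1, 3 and 1 macrophage-gate barcodes. After each barcode was thinned to 2000 UMIs it was met by 0 of 2402, 2556, 1670 and 2617, which allows shares of up to 0.125%, 0.117%, 0.18% and 0.115% (3 counts of the total, for counting error only). The macrophage gate left out barcodes with 5 or more collagen UMIs. These limits therefore do not cover mixed droplets with enough fibroblast RNA to enter the fibroblast gate.

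Members made up 39.7% and 36.3% of the fibroblast gate in the young libraries and 39.7% and 24.7% in the aged libraries. The ages overlapped, and the means of 38.0% ± 2.41 (SD, n = 2) in the young and 32.2% ± 10.6 (SD, n = 2) in the aged did not pass the exact two-sided permutation test (p = 0.667, where 2 libraries against 2 cannot go below 0.333). Without aged replicate 2 the difference changed sign, to 1.65 percentage points higher in the aged. Detection depends on depth: in young replicate 1 the median UMIs of gate barcodes were 3998 with none of the 5 genes detected, 8259 with 3 of them and 9022 with all 5. The members of aged replicate 2 were the shallowest. After thinning to 2000 UMIs the shares were 14.6% and 14.0% in the young and 9.63% and 8.18% in the aged (exact permutation p = 0.333, the smallest that 2 libraries against 2 can give). With at least 4 of the 5 genes they were 27.9% and 25.9% against 13.6% and 7.49%. Over all kept barcodes, the members' share was 19.5% and 18.9% in the 2 young libraries and fell short of that in both aged ones, at 7.85% and 4.63%. This share also reflects how many other cells were captured.

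Just inside the threshold, 522 and 520 young and 349 and 386 aged members carried exactly 3 of the 5 genes. Just outside it, 728 and 811 young and 333 and 654 aged gate barcodes carried 2. A further 419 and 565 young and 77 and 117 aged barcodes carried 3 genes but only 1 of Smpd3, Cxcl13 and Edn1. Members with exactly 3 genes were 29.8% and 28.6% of the young but 65.7% and 69.7% of the aged group, so the aged members sat closer to the threshold.

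The members were not one tight cluster. When the fibroblast gate was clustered without the 10 genes of the rule, young members fell mostly into 3 clusters and aged members into 2 others. Cluster 1, led by Akr1c18, Gap43, Krtdap and Wnt2, held 30.7% and 34.4% of young members. Cluster 2, led by H19 and Alkal2, held 26.9% and 25.5%, and cluster 4, led by Sfrp2 and Adamts16, held 30.1% and 26.4%. Of the aged members, 24.3% and 22.2% were in cluster 3, led by Cxcl14, Mmp3 and Hmcn2, and 63.3% and 66.1% in cluster 5. Cluster 5 was led by AC168977.1, AC133103.1, C130026I21Rik and Gm7609, genes that were higher in the aged libraries over all kept barcodes too. Prdm8, Sfrp4 and H2-Q6 came next. Members were 52.0% to 68.1% of clusters 1, 2, 4 and 5 but 16.7% of cluster 3. Clusters 3 and 5 held few young barcodes, so differences between ages within the members and differences between these clusters cannot be told apart.

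**Figure D2:**
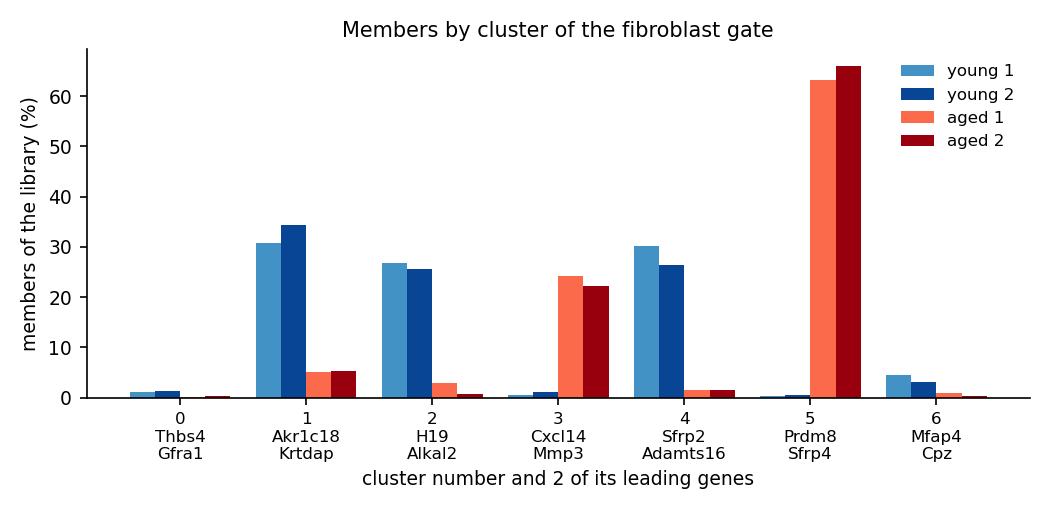
Percent of each library's members found in the 7 largest clusters of the fibroblast gate, clustered without the genes of the rule; bars are single libraries. Young members occupy clusters 1, 2 and 4, aged members clusters 5 and 3.

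Against the other fibroblasts of the same library, the members carried more transcripts of Pi16, Krtdap and Sfrp4 and of the 2 genes listed with each of them as markers of a capsule fibroblast type. The rule chose the members from these cells, so the contrast is a description without a test. The trios of markers led by Apod, Col6a5 and Myoc were lower in the members, all 3 genes of each in every library. Pi16, Dpp4 and Cd55, known from adventitial fibroblasts that surround vessels and organs, summed to 6043, 6200, 4937 and 5010 CPM in the members and to 2824, 3065, 2335 and 2899 CPM in the other fibroblasts, in the order young replicates 1 and 2 and aged replicates 1 and 2. At least 2 of these 3 genes were detected in 86.5% to 94.1% of members and in 49.0% to 55.9% of the other fibroblasts. The other fibroblasts were shallower, with median UMIs of 6334, 5995, 7280 and 5258 against 8730, 8574, 9787 and 6542 in the members. The part of depth in this detection gap was not tested. The members are by these genes part of a Pi16 and Dpp4 positive population that also extends beyond them. Krtdap, Sbsn and Dmkn, better known as secreted proteins of stratified epithelia, summed to 1106, 1236, 707 and 663 CPM against 479, 617, 261 and 387 CPM. Sfrp4, Prdm8 and Fez1 summed to 278, 290 and 531 and 532 CPM against 139, 146, 248 and 299 CPM.

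Of the genes with at least 20 CPM in the members, 7 of 6124 (0.114%) were at least 2-fold higher in the members in every library. The lowest of the 4 library ratios was largest for Mrgprg, which encodes an orphan receptor of the Mas-related family: it stood at 29.1, 34.9, 23.9 and 15.4 CPM in the members and at 9.70, 8.09, 6.85 and 5.83 CPM in the other fibroblasts, ratios of 2.65 to 4.32. Sema3e, a secreted semaphorin that guides vessels and axons, stood at 40.9, 39.2, 41.8 and 41.9 CPM against 13.3, 13.2, 14.7 and 19.4 CPM. Both genes were higher in the members of every library without overlap. Clic6 (ratios 2.43 to 4.39), Ptgs2, the inducible cyclooxygenase (2.08 to 3.99), Ackr2, a scavenger receptor for inflammatory chemokines (2.07 to 3.24), Islr2 (2.07 to 2.80) and Sbsn (2.01 to 2.64) completed the 7. After the rule was applied to thinned barcodes 0 genes reached 2-fold in every library, and with at least 4 of the 5 genes 1 did, which was not among these 7, while 23 and 24 of the 25 genes named by the rule of size were still above 1 in every library.

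Among more abundant genes the ratios were near 2. Anxa3 stood at 1107, 1151, 1114 and 1124 CPM in the members against 475, 560, 530.0 and 608 CPM. Fbn1, which encodes the microfibril protein fibrillin-1, stood at 2531, 2672, 1476 and 1537 CPM against 1113, 1295, 781 and 833 CPM. Emilin2, an elastic fibre glycoprotein, had ratios of 1.87 to 2.46. Members and other fibroblasts did not overlap at either age for these 3 genes. Secreted Wnt antagonists and ligands were also among the 25: Sfrp2 (ratios 1.95 to 3.07), Sfrp4 (1.87 to 2.46), Wnt2 (1.92 to 2.29) and the pathway component Dact2 (1.88 to 2.93).

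The members carried fewer transcripts of Fmod, Thbs4 and Cpxm2, genes of matrix and secreted proteins, and of mesothelial genes. In all, 78 of 3068 genes (2.54%) with at least 50 CPM in the other fibroblasts were at least 2-fold lower in the members of every library. Fmod, a small proteoglycan of dense collagen, stood at 28.3, 18.7, 5.98 and 4.60 CPM in the members against 575, 395, 128 and 120.0 CPM. The ratio was at most 0.0493 in each library. Thbs4 was at most 3.18 CPM in the members and 32.6 to 84.9 CPM in the others, and Cpxm2 38.7 to 57.5 CPM against 360.4 to 938 CPM. The summed level of Myoc, Fmod and Cilp was 108 to 224 CPM in the members against 1158 to 2188 CPM. Msln, Upk3b and Slpi, genes of the mesothelium that lines the organ surface, were also among the 12 lowest. Msln was 6.33, 5.80, 0.193 and 0.541 CPM against 85.2, 93.9, 19.9 and 29.3 CPM. Cluster 9 of the gate, with 294 barcodes of which 10 were members, was led by Gpm6a and Upk3b. Upk3b stood at 2358 CPM in cluster 9 and 4.63 CPM in the other clusters, and Slpi at 20812 and 54.0 CPM. Small clusters of mixed droplets also lay among the other fibroblasts, and the part of all these clusters in the ratios was not tested.

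**Figure D3:**
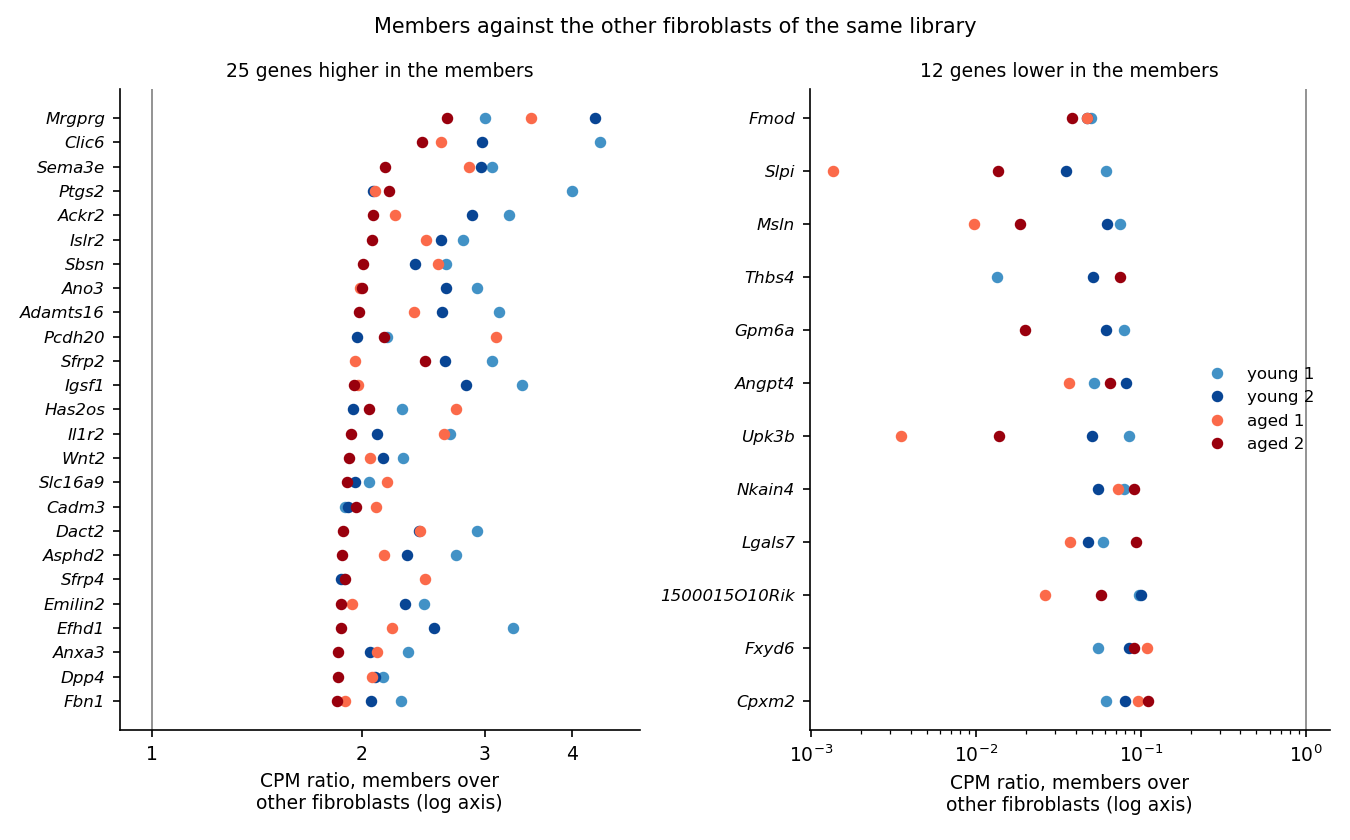
Ratio of CPM in the members to CPM in the other fibroblasts of the same library on a log axis, for the 25 genes highest and the 12 lowest by the rule for named genes; each point is 1 library and the line marks a ratio of 1. Thbs4 and Gpm6a had no UMI in the members of aged replicate 1, so that point is not drawn.

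Of the gene lists, all 30 ribosomal protein genes were higher in the members of every library, and all 10 contractile genes with at least 10 CPM were lower in every library. For comparison, 22.8% of 10486 genes were above 1 and 23.0% below 1 in all 4 libraries. The matrix list was mixed, with 10 of 32 genes higher and 17 lower.

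With age, 14 of 20 major histocompatibility complex (MHC) class I genes rose in the members, against 8.73% of all genes tested, and C4b, Cxcl12 and Cdkn2c rose too. Of 14 basement membrane genes, 10 fell, against 9.29% of all genes tested, as did Sparc, Itm2a and Gap43. UMI counts were summed over the members of each library and tested with edgeR's quasi-likelihood test. Of 13859 genes tested, 2497 (18.0%) passed an adjusted p of 0.05, 1210 (8.73%) rising and 1287 (9.29%) falling, or 1283 falling without the genes of the rule. The median log2 fold change of all tested genes was -0.0046. DESeq2 called 1328 genes, the rule on thinned barcodes gave 537 and leaving out young replicate 2 gave 1495, and at most 1 of the genes called under these settings had the opposite direction. Unless stated, a log2 fold change is aged over young in the members.

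Among the 12 genes that rose most by the rule for named genes, C4b, a complement component of the classical pathway (chr17:34728380-34743882), was the most abundant. It stood at 62.9 and 68.5 CPM in the young and at 432 and 481 CPM in the aged members. The aged libraries lay far above the young, and the rise was 2.82 on the log2 scale (SE 0.0843, adjusted p = 7.28e-08). Mmp3, which encodes the matrix protease stromelysin-1, stood at 3.92 and 5.55 CPM in the young and 38.7 and 58.7 CPM in the aged (log2 fold change 3.36, SE 0.22, adjusted p = 1.66e-05). Gpnmb, a transmembrane glycoprotein best known from phagocytes and pigment cells, stood at 18.2 and 16.8 CPM and then 87.9 and 92.2 CPM (log2 fold change 2.38). Ifitm1, an interferon-inducible membrane protein gene, went from 7.02 and 7.80 CPM to 60.1 and 53.5 CPM, Hmcn2 (hemicentin-2, an extracellular matrix protein) from 3.99 and 5.43 CPM to 32.8 and 32.2 CPM, and the noncoding host gene Snhg11 from 4.11 and 4.99 CPM to 39.1 and 47.6 CPM. The young and aged libraries did not overlap for any of these 6 genes.

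The other 6 of the 12 overlap one another or lie on unplaced scaffolds, where reads may be shared between copies. AC168977.1 had 4 UMIs in the young and 562 in the aged members, a ratio of 503 (95% exact counting interval 195 to 1853). AC133103.1 had 3 and 410 UMIs, a ratio of 490 (95% exact counting interval 166 to 2383). C130026I21Rik stood at 1.65 and 0.624 CPM and then 135 and 135 CPM, Csprs at 0.759 and 0.936 CPM and then 52.8 and 49.7 CPM, and Gm7609 at 1.20 and 1.44 CPM and then 53.6 and 55.7 CPM. A530032D15Rik went from 4.87 and 3.81 CPM to 28.7 and 24.9 CPM. C130026I21Rik (chr1:84992690-85270566), Gm7609 (chr1:85199613-85213786) and A530032D15Rik (chr1:85083069-85109853) overlap on build GRCm38, and AC168977.1, AC133103.1 and Csprs are the genes on scaffolds. How reads were divided among them was not stated, and their single values are uncertain. They were not particular to the members: over all kept barcodes AC168977.1 averaged 0.118 CPM in the young and 31.1 CPM in the aged libraries, and C130026I21Rik 1.61 and 66.7 CPM.

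Among the 12 that fell most, Gap43 (chr16:42248442-42340651), which encodes a growth-associated membrane protein of neurites, stood at 42.7 and 46.2 CPM in the young and at 0.771 and 0 CPM in the aged members. That is 1415 UMIs against 4, a ratio of 98.8 (95% exact counting interval 38.5 to 363). Itm2a, a membrane protein gene of differentiating mesenchyme and T cells, stood at 160 and 150.4 CPM and then 12.7 and 12.7 CPM (log2 fold change -3.59, SE 0.10, adjusted p = 5.84e-08). The imprinted noncoding RNAs H19 and Meg3, both abundant in fetal tissue, fell together: H19 from 41.0 and 32.5 CPM to 4.82 and 1.62 CPM, and Meg3 from 469.5 and 494 CPM to 142 and 122 CPM. Akr1c18, a steroid dehydrogenase gene, went from 118 and 140 CPM to 33.9 and 36.8 CPM, and Pi15, a peptidase inhibitor gene, from 92.8 and 84.0 CPM to 22.9 and 22.2 CPM. Nptx2, Stmn4, Tmeff1, Nrep, Angptl1 and Rab38 fell by 1.79 to 2.43 on the log2 scale. The highest aged value lay below the lowest young value for each of these 12 genes.

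**Figure D4:**
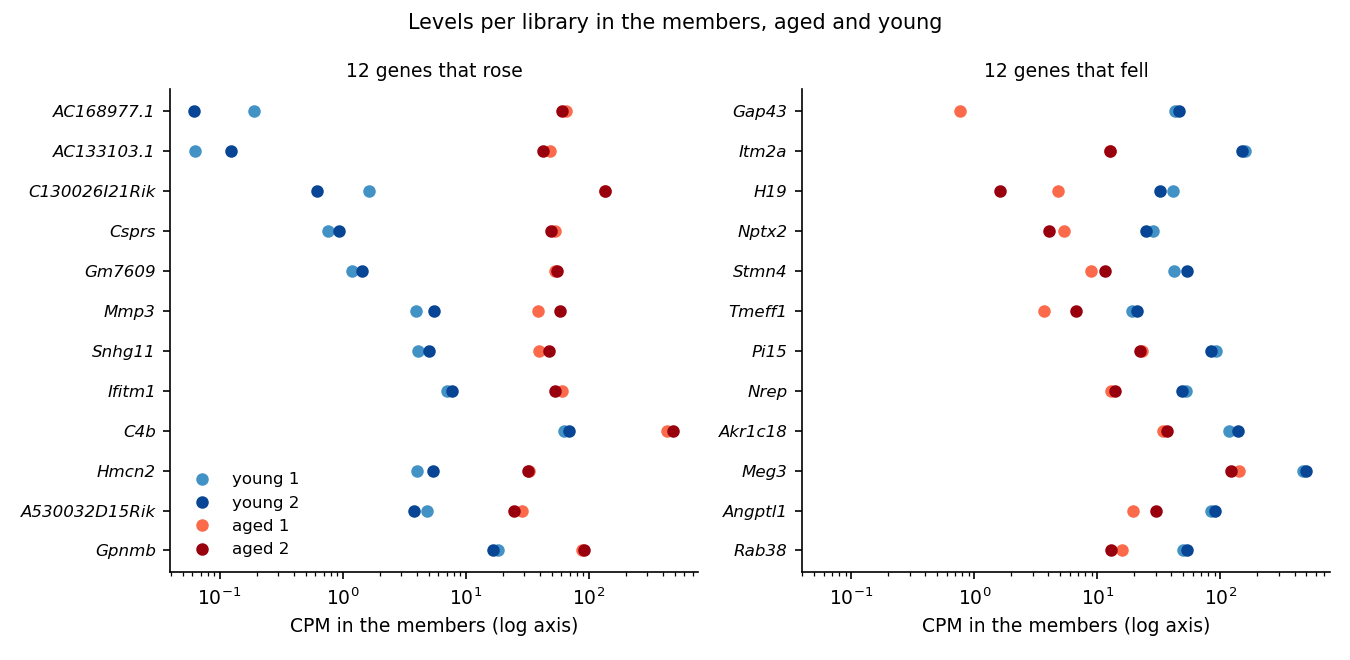
Level in CPM on a log axis, per library, of the 12 genes that rose and the 12 that fell most in the members; each point is 1 library. Young and aged points do not overlap for any gene, and Gap43 in aged replicate 2, at 0, is not drawn.

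The matrix genes went both ways. Of 32 fibrillar collagen and matrix genes tested, excluding the collagens of the rule, 8 rose and 14 fell. Over all genes tested the shares were 8.73% and 9.29%. The median log2 fold change of the list was -0.26. Sparc, a collagen-binding matricellular protein gene, stood at 8159 and 8841 CPM in the young and 2285 and 2587 CPM in the aged members (log2 fold change -1.78, SE 0.0846, adjusted p = 2.15e-06). Col5a2, a chain of collagen V, went from 451 and 455 CPM to 176 and 182 CPM (log2 fold change -1.32), and Eln, the elastin gene, from 263 and 279 CPM to 119.5 and 113 CPM (log2 fold change -1.20). Thbs1, which encodes the matricellular protein thrombospondin-1, went from 14.9 and 16.6 CPM to 31.6 and 23.3 CPM. Fbn1 fell by 0.77, while Dcn, which encodes the proteoglycan decorin, rose by 0.43. The ages did not overlap for any of these genes.

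Basement membrane genes mostly fell, 10 of 14 tested, and 1 rose, with a median log2 fold change of -0.52. Lamc1, the gamma chain shared by most laminins, stood at 721 and 695 CPM in the young and 348 and 329 CPM in the aged members (log2 fold change -1.04, adjusted p = 1.58e-05). Lamb2 fell by 0.79 and Nid1, the laminin and collagen IV linker nidogen-1, fell by 0.59. Lama2, the laminin chain of muscle and stromal basement membranes, fell by 0.73. Col15a1 stood at 55.1 and 43.7 CPM and then 35.1 and 22.2 CPM. Col18a1, the source of endostatin, was the gene that rose, from 45.8 and 35.8 CPM to 67.8 and 62.5 CPM.

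Partners of periostin also shifted, 1 of 16 rising and 6 falling, against 8.73% and 9.29% of all genes. Bmp1, the protease that trims procollagens and activates lysyl oxidase, stood at 264 and 266 CPM in the young and 159 and 162 CPM in the aged (log2 fold change -0.70, adjusted p = 0.000144). Loxl2 fell by 1.06 and Lox by 0.57, both genes of collagen cross-linking enzymes. Loxl1, another gene of this family, stood at 628 and 614 CPM and then 514 and 493 CPM. Leaving out young replicate 1 or 2 ended its call (adjusted p = 0.0979 and 0.0538). Ctgf, a matricellular growth factor modulator, was the one that rose, from 5.19 and 5.62 CPM to 17.3 and 15.4 CPM. Fn1, which encodes fibronectin, stood at 2844 and 2809 CPM and then 2386 and 2508 CPM and did not pass (adjusted p = 0.0833).

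None of the 10 contractile genes tested passed with edgeR's quasi-likelihood test or with DESeq2, against 18.0% of all genes by edgeR's test. An unadjusted p under 0.05 was reached by 2 of the 10 and by 4497 of the 13859 genes tested. The list was not tested as a set. Cald1, the actin-binding caldesmon, stood at 330.3, 362, 327 and 287 CPM (log2 fold change -0.15, SE 0.0817), and passed when aged replicate 1 was left out (log2 fold change -0.24, adjusted p = 0.0476). Myl9, a regulatory myosin light chain, stood at 77.0, 79.7, 76.5 and 85.4 CPM.

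Of 27 genes of sphingomyelin and ceramide metabolism, the pathway of Smpd3, 3 rose and 2 fell, a share near the 18.0% of all genes. S1pr3, a receptor for sphingosine 1-phosphate, went from 18.0 and 17.7 CPM to 28.3 and 29.7 CPM, and Cerk, which phosphorylates ceramide, from 37.1 and 37.7 CPM to 20.4 and 27.0 CPM. The ceramide synthase genes went opposite ways, Cers6 from 30.1 and 30.2 CPM to 20.8 and 20.5 CPM and Cers4 from 14.4 and 15.5 CPM to 19.5 and 24.1 CPM. Asah1, which encodes acid ceramidase, stood at 97.3 and 99.1 CPM and then 122 and 117 CPM. The call was lost for Cers4 without young replicate 1 or aged replicate 2 (adjusted p = 0.0733 and 0.0749), and for Asah1 without young replicate 1 or young replicate 2 (adjusted p = 0.131 and 0.103). Of 4 endothelin system genes tested, Mme, which encodes neprilysin, a protease that degrades endothelin, rose from 24.7 and 20.2 CPM to 47.6 and 44.9 CPM (log2 fold change 1.07). Ece1, the endothelin-converting enzyme, stood at 79.9, 78.9, 92.7 and 86.8 CPM and did not pass, though it did without Cxcl13 in the rule (adjusted p = 0.04755). In the LGI family and its receptors, Lgi3 fell from 10.9 and 12.7 CPM to 1.35 and 2.43 CPM and the receptor gene Adam23 rose from 24.9 and 21.5 CPM to 38.2 and 42.4 CPM. Lgi4 went from 58.9 and 54.0 CPM to 42.02 and 40.01 CPM, a call lost without young replicate 1 (adjusted p = 0.0848).

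Of 15 lymphoid stroma genes, 7 rose and 1 fell, against 8.73% and 9.29% of all genes. Cxcl12, a chemokine that retains B cells and plasma cells in stroma, stood at 99.2 and 89.9 CPM in the young and 362 and 368 CPM in the aged members (log2 fold change 1.97, SE 0.0753, adjusted p = 4.57e-07). The adhesion molecule genes Vcam1 and Icam1 rose by 1.08 and 1.17, and Pdpn, a membrane glycoprotein of reticular stroma, went from 137 and 133 CPM to 240 and 201 CPM. Il7, a survival cytokine for lymphocytes, rose from 1.27 and 1.50 CPM to 5.98 and 4.06 CPM. Tnfsf13b, which encodes the B cell survival factor BAFF, averaged 27.2 CPM in the young and 39.9 CPM in the aged members, and Enpp2, the autotaxin gene, stood at 15.3 and 14.4 CPM and then 27.2 and 18.1 CPM. The first call was lost without young replicate 2 (adjusted p = 0.0757) and the second without aged replicate 1 (adjusted p = 0.268). Il33, an alarmin cytokine, was the gene that fell, from 127 and 163 CPM to 91.9 and 81.4 CPM. The defining markers of follicular dendritic and reticular stroma, Cr2, Ccl19, Ccl21a, Madcam1 and Tnfsf11, summed to at most 1.16 CPM in the members of any library. Ccl19 and Ccl21a each have another identifier among the counted genes, which this sum left out.

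Among 20 chemokine and cytokine genes, 6 rose and 4 fell, against 8.73% and 9.29% of all genes. DESeq2 called 4 of the 20, against 1328 of all 13859 genes, and did not call Ccl2, Cxcl2 or Cx3cl1. Ccl11, which encodes the eosinophil attractant eotaxin, stood at 682 and 696 CPM in the young and 1212 and 1215 CPM in the aged members (log2 fold change 0.84, adjusted p = 3.5e-05). Il34, a ligand of the macrophage receptor CSF1R, fell from 32.4 and 39.4 CPM to 14.5 and 15.7 CPM. Ccl2, a monocyte attractant, stood at 72.3 and 54.5 CPM and then 48.0 and 30.3 CPM, and its call was lost without young replicate 1 (adjusted p = 0.0977) or aged replicate 2 (adjusted p = 0.0662). Cxcl2 stood at 2.97 and 2.93 CPM and then 0.578 and 0.27 CPM, a call also lost with at least 4 of the 5 genes and on thinned barcodes. Cx3cl1 reached at most 2.16 CPM, and its call was lost without any one of the 4 libraries, with adjusted p from 0.0557 to 0.202. Ccl8 stood at 22.3 and 20.2 CPM and then 67.3 and 154 CPM, below its mean over all kept barcodes of 568 CPM in the young and 2228 CPM in the aged libraries.

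The complement list had 6 genes that rose and 2 that fell of 13, against 8.73% and 9.29% of all genes. C2 went from 71.1 and 72.6 CPM to 103 and 132 CPM. Cfb, complement factor B, stood at 11.8 and 14.0 CPM and then 24.7 and 15.1 CPM, a call lost without young replicate 1 (adjusted p = 0.0662) or aged replicate 1 (adjusted p = 0.439). C3, the central complement component, was abundant at both ages, at 4742, 4202, 4336 and 4328 CPM, with a log2 fold change of -0.02 that did not pass. Cd59a, an inhibitor of the membrane attack complex, was under 3 CPM throughout and lost its call without young replicate 1 (adjusted p = 0.0895) or aged replicate 1 (adjusted p = 0.0631). Of the MHC class I list, 14 of 20 genes rose, well above the 8.73% of all genes, and 1 fell, with a median log2 fold change of 0.57. H2-Q6 went from 12.8 and 7.92 CPM to 41.8 and 47.0 CPM, H2-Q7 from 26.4 and 19.4 CPM to 62.5 and 72.2 CPM, and Nlrc5, the transactivator of these genes, from 3.29 and 2.62 CPM to 7.13 and 8.11 CPM. H2-Q4 rose by 1.31, H2-K1 by 0.72 and B2m, the shared light chain, by 0.54. The H2-Q genes are close copies of one another, so the division of reads among them is uncertain.

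Of 16 senescence-associated genes, 7 rose and 2 fell, against 8.73% and 9.29% of all genes. Cdkn2a, Cdkn2b, Cdkn2c and Cdkn1a, which encode inhibitors of cyclin-dependent kinases, were among those that rose. Cdkn1b, another such inhibitor, stood at 63.4 and 58.5 CPM in the young and 54.4 and 50.8 CPM in the aged members and did not pass (adjusted p = 0.182). Cdkn2a was low throughout, at 0.696 and 0.437 CPM in the young and 6.94 and 6.49 CPM in the aged members (log2 fold change 3.57, SE 0.36, adjusted p = 0.0002). Its mean over all kept barcodes was 1.48 and 8.57 CPM. Cdkn2b stood at 3.29 and 4.80 CPM and then 18.9 and 13.8 CPM, Cdkn2c at 22.4 and 22.03 CPM and then 67.5 and 70.8 CPM, and Cdkn1a at 89.5 and 98.8 CPM and then 152 and 132 CPM. Igfbp3 fell from 293 and 218 CPM to 157 and 111 CPM. The proliferation genes Mki67, Top2a and Birc5 all fell. They summed to 49.4 and 46.5 CPM in the young and 1.35 and 6.76 CPM in the aged members. With the rule on thinned barcodes these 3 calls were lost, with log2 fold changes of 0.88 for Mki67, -0.22 for Top2a and 0.011 for Birc5.

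Of 24 TGF-beta, BMP and Wnt ligands and inhibitors, 5 rose and 8 fell, against 8.73% and 9.29% of all genes. Bmp7 went from 60.4 and 66.1 CPM to 28.1 and 25.1 CPM, and Wnt2 from 57.1 and 72.9 CPM to 25.4 and 33.5 CPM. Wnt5a fell by 0.70. Chrdl1, a BMP antagonist, rose and is described with the difference between populations. Bmp4 went from 21.3 and 24.7 CPM to 11.4 and 14.3 CPM and Rspo3, a Wnt agonist, from 22.5 and 21.3 CPM to 11.6 and 14.1 CPM. Dkk3 reached at most 4.24 CPM and lost its call without young replicate 1, young replicate 2 or aged replicate 1 (adjusted p = 0.239, 0.204 and 0.247). Wnt6 reached at most 4.43 CPM and lost its call without young replicate 1, young replicate 2 or aged replicate 1 (adjusted p = 0.0566, 0.0608 and 0.303).

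In the bone and cartilage list of 7 genes, 2 rose and 2 fell, against 8.73% and 9.29% of all genes. The homeobox gene Msx1 went from 7.53 and 7.61 CPM to 25.2 and 22.2 CPM. Sox9 stood at 7.21 and 4.68 CPM and then 28.1 and 10.5 CPM, and Spp1 at 3.42 and 19.2 CPM and then 0 and 1.08 CPM. Mgp, an inhibitor of calcification, stood at 252 and 261 CPM and then 164 and 221 CPM, a call lost without aged replicate 1 (adjusted p = 0.121) and turned to a rise of 0.91 with the rule on thinned barcodes (adjusted p = 0.00283). Of 30 ribosomal protein genes 14 rose and 0 fell by edgeR's test, against 8.73% and 9.29% of all genes. An unadjusted p under 0.05 in either direction was reached by 22 of the 30, and by 4497 of all 13859 genes tested. The largest rises were 0.56 for Rps10, 0.53 for Rpl10, 0.51 for Rps19 and 0.49 for Rps7 on the log2 scale. Of 18 immediate early and heat shock genes 1 rose and 3 fell, a share near the 18.0% of all genes. The chaperone gene Hsph1 was among those that fell, from 26.3 and 33.8 CPM to 13.5 and 17.3 CPM. Dnajb1, another chaperone gene, stood at 73.2 and 82.9 CPM and then 60.7 and 46.2 CPM, and Dusp1 at 308 and 342 CPM and then 260.2 and 264 CPM. Both calls were lost without young replicate 2 (adjusted p = 0.056 and 0.204). Ier3 was the gene that rose, from 20.6 and 25.6 CPM to 31.2 and 36.8 CPM, a call lost without young replicate 1 (adjusted p = 0.0997).

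Genes that distinguish capsule fibroblast types moved within the members too. Krtdap, Sbsn and Dmkn all fell, Sbsn from 431 and 470 CPM to 217 and 212 CPM. Sfrp4, Prdm8 and Fez1 all rose, Sfrp4 from 164 and 172 CPM to 323 and 328 CPM and Prdm8 from 20.9 and 21.8 CPM to 50.5 and 54.3 CPM. Apod, Inmt and Steap4 rose as well, Apod from 66.2 and 71.7 CPM to 318 and 244 CPM. In the other fibroblasts Sbsn, Sfrp4 and Apod moved the same way. There Sbsn went from 163 and 197 CPM to 84.3 and 106 CPM, and Sfrp4 from 87.2 and 92.1 CPM to 131 and 173 CPM. Apod went from 214 and 173 CPM to 958 and 711 CPM. By the interaction test 0 of the 3 genes differed in the Krtdap and Apod trios and 1 of 3 in the Sfrp4 trio, against 3.39% of all genes. Pi16 stayed abundant, at 5154 and 5306 CPM in the young and 4039 and 4207 CPM in the aged members, a fall of 0.32 on the log2 scale.

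Transcripts of other cells differed between the ages among the members, and their part in the changes above was not tested beyond the values given here. The 3 plasma cell markers summed to 2.28 and 3.81 CPM in the young and 119 and 254 CPM in the aged members, against 3104 and 4722 CPM in the aged other fibroblasts. The 5 mesothelial markers summed to 80.8 and 69.1 CPM in the young and 51.1 and 50.8 CPM in the aged. By edgeR's test 4 of them fell and 1 rose, against 9.29% and 8.73% of all genes, with a median log2 fold change of -4.10. Upk3b went from 12.2 and 8.86 CPM to 0.193 and 0.811 CPM. Wt1, the largest part of the sum, went from 45.4 and 41.2 CPM to 33.9 and 31.1 CPM. Krt19 was the gene that rose, from 12.6 and 10.8 CPM to 16.8 and 18.4 CPM. The 4 proximal tubule markers summed to 88.7, 273, 3.28 and 104 CPM. The 6 macrophage markers summed to 445, 409, 229 and 449 CPM, with overlapping ages. None was called by edgeR or DESeq2, against 18.0% of all genes by edgeR's test. For 1 of the 6, and for 4497 of all 13859 genes tested, the unadjusted p was under 0.05. When barcodes with 3 or more UMIs of such markers (20.8% and 21.9% of young and 24.5% and 32.3% of aged members) were left out, 2563 genes passed, and 2108 of the original 2497 calls were among them with the same direction.

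Whether the age change differed between the members and the other fibroblasts was tested as an interaction, with the library as a block. The other fibroblasts were not the same mixture at both ages. Cluster 3, with 16.7% members, held 50 and 45 young but 600 and 980 aged barcodes. Cluster 6, led by Mfap4 and Cpz and with 13.9% members, held 559 and 421 young but 12 and 19 aged barcodes. Differences in age change and in the make-up of the other fibroblasts therefore cannot be told apart. Of 15566 genes, 528 (3.39%) differed, 348 (2.24%) more positive and 180 (1.16%) more negative in the members. The median difference over all genes was 0.00063. Without aged replicate 1, 51 genes passed, and without aged replicate 2, 182. Without young replicate 2, 929 passed, and with the rule on thinned barcodes 106.

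Chrdl1 (chrX:143285674-143394262), a secreted BMP antagonist, had the smallest p among the genes that met the level limit (at least 20 CPM in the members of one age and at least the level over all kept barcodes). In the members it stood at 61.4 and 52.8 CPM in the young and 127 and 136 CPM in the aged libraries, and in the other fibroblasts at 157 and 131 CPM and then 121 and 110.0 CPM. The ages were apart in both populations but in opposite order, though the fall in the others did not pass edgeR's test (adjusted p = 0.0712). The difference of the 2 changes was 1.55 on the log2 scale (SE 0.0868, adjusted p = 8.36e-06). Serpine2, a protease inhibitor gene, went from 46.8 and 49.1 CPM to 156 and 171 CPM in the members and from 132 and 126 CPM to 204 and 187 CPM in the others, a difference of 1.20. Vit, a matrix protein gene, went from 57.6 and 54.0 CPM to 105 and 119 CPM in the members, while the others stood at 120 and 116 CPM and then 117 and 119 CPM. Differences were also positive for Crispld2 (1.11), Cd9 (0.84), Gstm5 (0.75) and Pcolce (0.69), an enhancer of procollagen trimming. For all 7 of these genes the young members lay below the young other fibroblasts.

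The difference was negative for Ccl11 and Egr1. Ccl11 stood at 344 and 378 CPM in the young and 1042 and 1015 CPM in the aged other fibroblasts, against the smaller rise in the members given above (difference -0.66, SE 0.0619). Egr1, an immediate early transcription factor, stood at 948, 999, 894 and 612 CPM in the members and 643, 704, 972 and 743 CPM in the others (difference -0.69, SE 0.0661). Neither Egr1 change passed by itself in edgeR's test (adjusted p = 0.116 in the members and 0.0655 in the others). Of the 18 immediate early and heat shock genes, 10 had a negative and 0 a positive difference, against 1.16% and 2.24% of all genes tested. Fos (-0.55), Jun (-0.48) and Junb (-0.57) were among them, and each missed the threshold without aged replicate 1, with adjusted p of 0.0898, 0.102 and 0.0564.

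**Figure D5:**
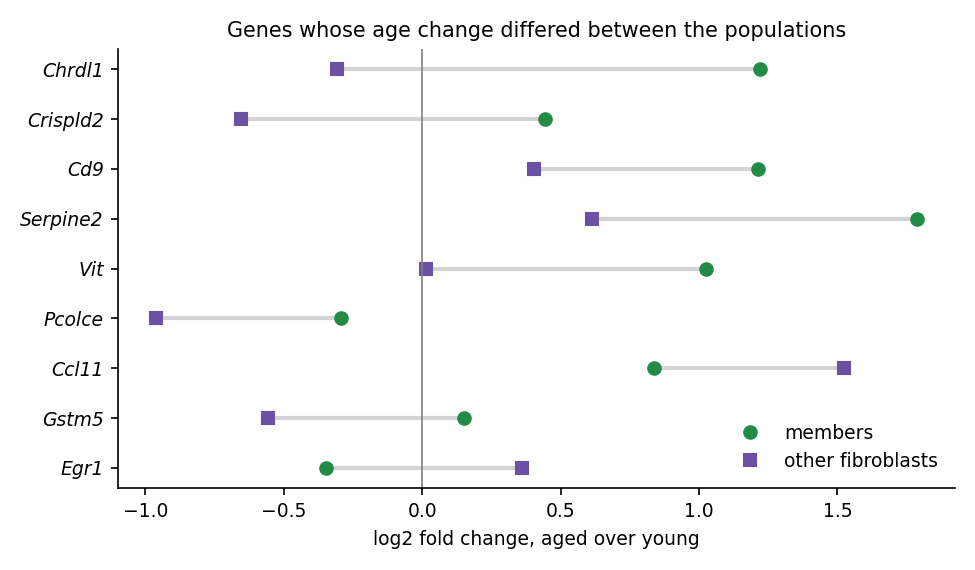
Log2 fold change, aged over young, in the members (circles) and in the other fibroblasts (squares), for 9 of the 10 genes with the smallest p of the difference that met the level limit; each symbol is a fitted value over 4 libraries. Chrdl1, Crispld2 and Gstm5 have values of opposite sign in the populations, as has Egr1.

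Outside these 9 genes, the ones named here for the difference between populations were chosen after their values were seen. Tgfbi, a matrix protein related to periostin, fell in the other fibroblasts and stood at 103, 82.9, 86.7 and 81.9 CPM in the members (difference 0.86, adjusted p = 0.000368). It was also a leading gene of cluster 6, which held few aged barcodes. C2 had a difference of 1.07. Ccl8 had a difference of 1.94 (adjusted p = 8.36e-06), standing at 70.1, 62.1, 63.6 and 118 CPM in the other fibroblasts. Without barcodes that carried other cells' markers it was 0.0902 (adjusted p = 0.912). Pdpn was more positive (0.64) and Vcam1 more negative (-0.52) in the members, and neither passed without aged replicate 1 (adjusted p = 0.0787 and 0.189). The differences were 0.60 for Adam23, 1.21 for Cdkn2b, 1.70 for Ednrb, 0.75 for Enpp2, 0.36 for Sparc, -0.65 for Tnfsf13b and -0.72 for Atf3, and all 7 missed the threshold when aged replicate 1 or aged replicate 2 was left out, with adjusted p from 0.0517 to 0.416. Igfbp3 (0.49) and Acta2 (-2.12) missed it without aged replicate 1 (adjusted p = 0.282 and 0.537), and Sfrp1 (0.52) without aged replicate 2 (adjusted p = 0.082). Over all 15566 genes tested, 528 (3.39%) differed by edgeR's test and 575 by limma-voom, and 2462 had an unadjusted p under 0.05. Of 20 MHC class I genes, 0 differed by edgeR's test, 1 by limma-voom and 3 at an unadjusted p under 0.05. Of 30 ribosomal protein genes, 0 differed by edgeR's test, 2 by limma-voom and 12 at an unadjusted p under 0.05. Of the 6 macrophage markers, 5 had a positive difference, against 2.24% of all genes tested. Their summed level in the other fibroblasts was 694, 853, 203 and 438 CPM, beside the values in the members given above.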

How the data were processed

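Droplet single-cell RNA was measured in 4 libraries, young replicates 1 and 2 and aged replicates 1 and 2. The deposited matrices hold raw UMI counts per gene and barcode, which the authors made with Cell Ranger (6.0.2 per the submitters' processing notes, 6.0.1 per the file headers) on GRCm38, with barcodes already called as cells. The annotation is not given in the sources used here. GENCODE M21 supplied coordinates and holds 52489 of the 52636 identifiers.

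Barcodes with at least 500 UMIs, 300 genes and at most 20% mitochondrial UMIs were kept, 92.5% to 97.4% per library. No doublets were removed before the rule was applied. Scrublet scores (scanpy 1.11.5) marked 103, 80, 4 and 23 members, and leaving marked barcodes out is one of the alternatives. The gate was clustered from 2000 variable genes, 30 components and 15 neighbours (Leiden, resolution 0.5, leidenalg 0.10.2).

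Counts were summed per library over members and over other fibroblasts. edgeR 4.0.16 (quasi-likelihood, TMM, filter on low counts, R 4.3.3) tested age and the interaction, with Benjamini-Hochberg adjustment over all genes. DESeq2 1.42.0 and limma 3.58.1 (voom) were alternatives. Replicates varied beyond counting error (chi-square over degrees of freedom 4.36 in the young, 2.69 in the aged). CPM is per 1000000 UMIs of the summed barcodes. Scripts were tested on simulated data.

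Named genes were the 25 highest and 12 lowest by the least favourable library ratio of members to other fibroblasts, at 20 CPM in the members and 50 CPM in the others. With age they were the 12 largest rises and 12 largest falls with at least 20 CPM at one age and at least the level over all barcodes, and for the interaction the 10 smallest p with that level. From each list they were up to 4 called genes with the largest changes and its best known members. Genes that met this rule but are not reported here were not replaced. The members and the gene lists were chosen with earlier results of these data known.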

Additional observations from a re-analysis of the deposited data

Results flagged for a closer look

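In 9 named genes the change with age in the Smpd3 Edn1 fibroblasts differed from that in the other fibroblasts by the interaction test. The clusters that made up the other fibroblasts also differed between the ages. On the log2 scale the change in the members minus that in the others was 1.55 for Chrdl1, 1.20 for Serpine2, 1.11 for Crispld2, 1.04 for Vit, 0.84 for Cd9, 0.75 for Gstm5, 0.69 for Pcolce, -0.66 for Ccl11 and -0.69 for Egr1. Each group held 2 libraries, too few to look for a single library that stands apart within a group.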

How the results depend on the processing

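For the age change within the members, 2497 genes passed. The number was 855 without the filter on low counts, 1588 with at least 4 of the 5 genes, 537 with the rule on thinned barcodes and 1328 with DESeq2. It ranged from 1495 to 2760 when each library was left out in turn. It was 2968 with the replicate number as a replicate block, of which 2470 were among the 2497. Same-numbered libraries deviated together with a correlation of 0.18 over 2 pairs, so the numbers were not taken to pair the libraries. For the interaction, 528 genes passed, with 1050 without the filter, 106 on thinned barcodes, 300 without barcodes carrying other cells' markers and 51 to 929 when each library was left out. The split of higher against lower interaction calls moved from 348 and 180 to 436 and 614 without the filter.

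The share of members in the gate was lower in the aged under every other setting tried except without aged replicate 2, where the difference was 1.65 percentage points. Left out in turn, the libraries gave -13.3 to 1.65 points, and on thinned barcodes, an alternative added after the data were seen, -6.13 to -4.69. The counts of genes 2-fold higher in the members were 7, 0 (thinned) and 1 (at least 4 genes), and of genes 2-fold lower 78, 46 and 65.

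Of 108 named genes called with age, 63 stayed called under every alternative run, and of 27 for the interaction, most of them chosen after their values were seen, 11. Some calls were lost on thinned barcodes (32 with age and 11 for the interaction), without the filter on low counts (32 with age), with DESeq2 (16 with age) and without aged replicate 1 (14 for the interaction). On thinned barcodes the change with age turned for Mki67 (0.88), Birc5 (0.011), Ier3 (-0.14) and Mgp (0.91), and the interaction for Ccl8 (-0.65) and Ednrb (-0.14). Ednrb also turned without barcodes carrying other cells' markers (-0.49), and Igfbp3 with at least 4 genes (-0.14). Among the 5 named genes not called, Cald1 passed without aged replicate 1 and Ece1 without Cxcl13 in the rule, and Fn1, C3 and Myl9 passed under none. C3 changed sign with at least 4 genes (0.016) and without Cxcl13 in the rule (0.017), and left-out libraries gave -0.12 to 0.064. For Myl9 they gave -0.0092 to 0.15. With 1 library left in an age, that library was assumed to vary like those of the other age. The cause of these shifts was not tested. Thinned sums rest on fewer members, and the aged libraries, with the fewest members, limit the precision.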
